A study of Mus musculus with 4 samples.

Results

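The genes described here are 35 genes of glycolysis and of the response to low oxygen: 3 membrane transporters, 14 glycolytic enzymes, 3 kinases that steer glycolytic flux, 3 genes of oxygen sensing and 12 targets of hypoxia-inducible factor (HIF). They were taken by symbol from the feature lists of the 4 libraries, where all 35 were found among 31205 gene symbols. The cells came from subcutaneous tumours of MC38, a mouse colon adenocarcinoma line. Each tumour grew from 100000 MC38 cells placed under the skin of 8-week-old mice and was collected on day 16, then minced, digested with collagenase II, frozen and thawed, per the labels. CD45-positive cells, that is cells of blood origin, were sorted from them for droplet single-cell RNA sequencing from the 3′ end. There were 2 libraries from wild-type mice (WT) and 2 from Ufl1 conditional knockout mice (cKO), with no other treatment. UFL1 is the ligase that attaches the small modifier UFM1 to proteins, and the series title places its ablation in T cells. The Cre driver is not given in the sources used here, nor whether each library is 1 animal, so p-values measure only the spread between these libraries, which may be technical.

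Glycolysis breaks glucose down to pyruvate, which cells short of oxygen, and many activated immune cells, turn largely into lactate and export. When oxygen is scarce the prolyl hydroxylases Egln1 and Egln3 no longer mark the HIF1A protein for destruction, and HIF1A then binds its core motif near many genes, among them glucose transporters, glycolytic enzymes and Egln3 itself. HIF1A is controlled largely as a protein, so Hif1a RNA need not follow its activity. In tumours, macrophages far from vessels are known for this response, and activated T cells also use HIF1A.

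Promoter sequences are shown for 6 members on which the results turn. Bnip3, P4ha2 and Adm had the largest differences in Mmp12-positive macrophages, the enzymes Pgk1 and Tpi1 differed there by a like amount, the one with the HIF motif in its promoter and the other without, and Hif1a did not pass the test there. The 250 bases before a transcript start are given 5′ to 3′ on the gene's strand, from RefSeq on GRCm38.p6, at chr7:138909507-138909756, minus strand (Bnip3), chr11:54100674-54100923, plus strand (P4ha2), chr7:110627407-110627656, plus strand (Adm), chrX:106186850-106187099, plus strand (Pgk1), chr6:124814159-124814408, minus strand (Tpi1) and chr12:73907617-73907866, plus strand (Hif1a). Capitals mark the HIF core motif, searched as ACGTG and GCGTG on both strands, so that CACGT and CACGC are matches on the other strand and CACGTG counts on each strand.
Bnip3 promoter: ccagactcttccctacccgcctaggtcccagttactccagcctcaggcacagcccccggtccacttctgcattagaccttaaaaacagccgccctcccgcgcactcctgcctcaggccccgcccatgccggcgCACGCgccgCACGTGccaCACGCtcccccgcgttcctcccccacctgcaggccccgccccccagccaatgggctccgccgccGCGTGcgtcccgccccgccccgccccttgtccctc
P4ha2 promoter: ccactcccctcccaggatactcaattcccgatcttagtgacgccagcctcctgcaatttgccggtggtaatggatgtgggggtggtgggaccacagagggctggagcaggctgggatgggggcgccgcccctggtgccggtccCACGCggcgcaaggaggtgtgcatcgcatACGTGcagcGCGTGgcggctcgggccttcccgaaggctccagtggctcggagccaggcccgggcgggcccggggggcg
Adm promoter: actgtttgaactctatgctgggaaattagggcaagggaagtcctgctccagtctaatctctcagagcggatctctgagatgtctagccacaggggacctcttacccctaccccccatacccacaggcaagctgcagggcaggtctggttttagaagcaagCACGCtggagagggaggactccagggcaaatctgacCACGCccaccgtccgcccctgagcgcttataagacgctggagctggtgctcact
Pgk1 promoter: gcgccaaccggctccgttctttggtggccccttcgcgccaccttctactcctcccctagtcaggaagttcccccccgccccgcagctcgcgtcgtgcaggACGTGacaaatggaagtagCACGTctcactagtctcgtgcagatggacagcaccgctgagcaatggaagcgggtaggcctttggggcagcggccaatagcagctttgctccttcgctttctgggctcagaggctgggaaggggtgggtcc
Tpi1 promoter: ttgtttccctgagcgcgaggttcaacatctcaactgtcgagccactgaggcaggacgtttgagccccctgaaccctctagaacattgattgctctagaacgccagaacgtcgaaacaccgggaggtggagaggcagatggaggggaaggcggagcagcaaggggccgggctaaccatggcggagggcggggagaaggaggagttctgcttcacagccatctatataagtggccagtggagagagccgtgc
Hif1a promoter: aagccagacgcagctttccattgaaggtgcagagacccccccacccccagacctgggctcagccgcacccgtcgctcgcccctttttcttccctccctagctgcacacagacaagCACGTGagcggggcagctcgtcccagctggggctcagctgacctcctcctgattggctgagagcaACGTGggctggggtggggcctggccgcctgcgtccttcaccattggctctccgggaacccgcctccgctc
Bnip3 has 5 matches, from base -117 to base -35 before the start, and none was found in these letters of Tpi1. A RefSeq promoter was matched by symbol for 31 of the 35 members, with 45 start sites, each read from 250 bases before to 50 bases after the start. At least 1 match was present in 82.2% of these windows, against 43.8% of all 32851 promoter windows of that length in the table. At least 2 matches were present in 60% of them, against 20.6% of all windows. Base composition moves with the motif: of windows with 60% or more G and C, 27 of 29 member windows had a match, against 69.2% of all 9690 such windows. A match is a string of letters and not a measured binding site. Slc2a3, Bnip3l, Ero1l and Ndrg1 were not matched.

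Of 32801 cell barcodes, 32396 were kept, with 64141857 to 79747752 UMIs (counted RNA molecules) per library and 7287 to 8668 UMIs in the median cell. Cell groups were gates on the UMIs of marker genes, none of them a member, and 15112 cells fell in no gate. Of 18 gates, the 16 with 20 or more cells in every library were used. WT replicate 1 and cKO replicate 2 shared 479 barcodes, 398 of them with UMI totals that differed over 10-fold, against 85 to 104 for every other pair of libraries. Without every cell whose barcode occurred in another library, 33, 26, 26 and 15 members passed in the 4 comparisons between gates, in the order they are described, against 33, 26, 25 and 15 with them. Ufl1 itself was at 12.3 and 16.8 CPM (a gene's UMIs over all UMIs of the same cells and library, on the usual CPM scale) in the αβ T cells of the WT libraries and at 13.4 and 17.8 CPM in those labelled cKO, which overlap. The deleted exons are not given and reads come from the 3′ end, so this level does not check the labels.

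Across the 16 gates, 20 of the 35 members had their highest mean level in Mmp12-positive macrophages, 4 in Arg1-positive myeloid cells, 3 each in migratory dendritic cells and regulatory T cells, 2 in PD-1-positive CD8 T cells, and 1 each in Cx3cr1 macrophages, NK cells and type 1 dendritic cells. B cells were the lowest gate for 19 members. Mmp12-positive macrophages had 2 or more UMIs of Mmp12, a macrophage elastase, 10 or more of the complement C1q genes and none of Arg1. Arg1-positive myeloid cells had 2 or more UMIs of Arg1, the arginine-consuming enzyme arginase 1, and none of Mmp12. For 10 of the 20 members that peaked in Mmp12-positive macrophages, all 4 libraries there lay above all 4 of the next gate. The shares of all genes that peaked or stood apart in each gate were not computed, so these counts only describe the members. Neighbours further down the order mostly overlapped: of the 15 pairs of neighbouring gates, 14 overlapped for Slc2a1 and 12 for Tpi1. Below, 4 values in a row are WT replicate 1, WT replicate 2, cKO replicate 1 and cKO replicate 2.

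**Figure D1:**
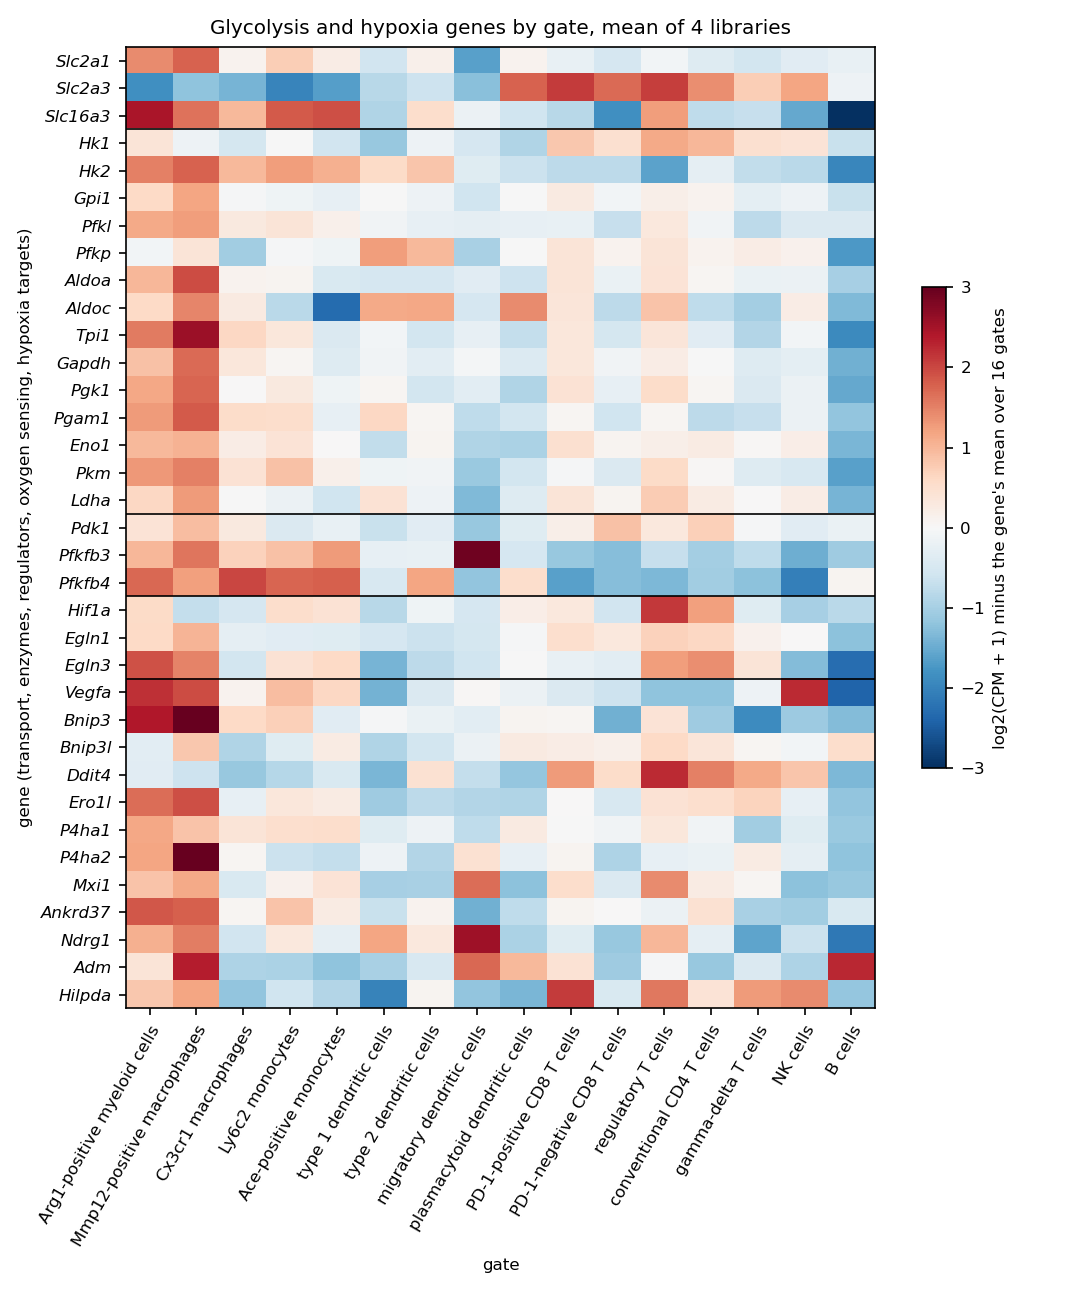
Mean level of each member (grouped by role) in each of the 16 gates, as log2(CPM + 1) minus the gene's own mean over gates, averaged over 4 libraries. The column of Mmp12-positive macrophages is high for most enzymes and hypoxia targets, while Hif1a and Ddit4 are highest in regulatory T cells.

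The glycolytic enzymes summed to 22571, 24722, 27477 and 21216 CPM in Mmp12-positive macrophages. In Arg1-positive cells they summed to 14310.4, 15444, 16384 and 15132 CPM, below every library of the Mmp12-positive cells. The mean of each other gate was lower still, from 10147 CPM in regulatory T cells to 3119 CPM in B cells. The transporters did not share this order. Slc16a3, the lactate exporter MCT4, was highest in Arg1-positive cells at 211, 233, 179 and 325 CPM, which overlapped the 129.7 to 186 CPM of Ace-positive monocytes, and in B cells it was at 2.21 to 5.37 CPM. Slc2a1, the glucose transporter GLUT1, was highest in Mmp12-positive macrophages at 235, 303, 245 and 245 CPM, which overlapped the 176 to 253 CPM of Arg1-positive cells. Slc2a3, the glucose transporter GLUT3, was instead highest in PD-1-positive CD8 T cells at 27, 28.5, 39.6 and 40.8 CPM, a level that overlapped that of regulatory T cells. In Mmp12-positive macrophages Slc2a3 was at 0 to 6.75 CPM, with 0 to 5 UMIs per library, and it was too low to be tested in the 3 myeloid comparisons.

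Hif1a and Ddit4, an inhibitor of the growth regulator mTORC1, were highest in regulatory T cells. Hif1a was at 512, 477, 643 and 406 CPM there, above every library of conventional CD4 T cells, the next gate (229, 290.5, 312 and 282 CPM). In Mmp12-positive macrophages, the highest gate for 5 of the 12 hypoxia targets, it was at 72.9, 53.2, 62.9 and 96 CPM, and NK cells were lowest with a mean of 58.7 ± 6.78 CPM (SD, n = 4). Ddit4 was at 476, 792, 609 and 482 CPM in regulatory T cells and 296 to 415 CPM in conventional CD4 T cells, again without overlap. Vegfa, a growth factor for blood vessels, was at 215, 157, 172 and 152 CPM in NK cells and at 172, 201, 143 and 154 CPM in Arg1-positive cells, the next gate, and the libraries overlapped. Migratory dendritic cells, with 59 to 91 cells per library, had the highest Pfkfb3, a kinase that makes an activator of phosphofructokinase, at 216, 323, 169 and 286 CPM. No library of the next gate, Mmp12-positive macrophages, exceeded 115 CPM. Ndrg1, a stress-response gene, was also highest in migratory dendritic cells, at 343, 200.2, 178 and 315 CPM.

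Mmp12-positive macrophages were first compared with Cx3cr1 macrophages, C1q-positive cells with Cx3cr1 but neither Arg1 nor Mmp12, within the same 4 libraries. Of 34 members tested, 32 were higher in the Mmp12-positive cells, 1 was lower and 1 did not pass. All 14 enzymes, both transporters tested and all 12 hypoxia targets were higher. Over all 9052 genes tested, 24.5% passed and 13.7% were higher (edgeR's quasi-likelihood test with library as a block, adjusted p under 0.05 by Benjamini-Hochberg over all genes tested). The median log2 fold change was 1.59 over the members tested and -0.05 over all genes tested. For 29 members the 4 Mmp12-positive libraries lay above all 4 Cx3cr1 libraries, as they did for 6.08% of all genes tested. Scaling by library totals alone moved the median of all genes to -0.30 and the split of all calls from 1239 higher and 982 lower to 731 higher and 2749 lower. Under that scaling 31 members were higher and 1 lower, with a median of 1.34.

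The hypoxia targets included the largest differences. Bnip3, a mitophagy receptor, was at 452, 487, 494 and 415 CPM in Mmp12-positive macrophages and at 58, 68.4, 71.5 and 61.3 CPM in Cx3cr1 macrophages. Its log2 fold change was 3.08 ± 0.09 (SE, edgeR adjusted p = 6.1e-17). The libraries of each gate lay close together and far from those of the other. P4ha2, a collagen prolyl hydroxylase, was at 29.7, 23, 26.4 and 19.2 against 1.34, 1.81, 1.33 and 1.06 CPM (4.30 ± 0.29, edgeR adjusted p = 1.12e-10). Adm, the vasodilator peptide adrenomedullin, was at 4.05, 12.2, 21.6 and 17.9 against 0.268, 1.66, 0 and 0.264 CPM (4.58 ± 0.50, edgeR adjusted p = 2.91e-07). Adm rested on few molecules, with 3 to 32 UMIs per library in the Mmp12-positive cells and 0 to 11 in the Cx3cr1 macrophages.

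Hilpda, a protein of lipid droplets, was at 273, 301, 279.9 and 201 against 65, 50.3, 48.9 and 38.6 CPM (2.65 ± 0.11, edgeR adjusted p = 9.21e-15). Ero1l, an oxidase that forms disulfide bonds in the endoplasmic reticulum, was at 236, 252, 208 and 227 against 49.8, 41.7, 49.4 and 59.4 CPM (2.47 ± 0.11, edgeR adjusted p = 7.75e-14). Ndrg1 was at 127, 155, 130.5 and 105 against 40.1, 20.7, 23.7 and 32.2 CPM (2.48 ± 0.16, edgeR adjusted p = 5.18e-11). None of these 3 targets had overlapping libraries. Vegfa was higher by 2.19 ± 0.14 and Bnip3l, a mitophagy receptor related to Bnip3, by 1.98 ± 0.10 on the log2 scale. At the small end, the collagen prolyl hydroxylase P4ha1 was higher by 0.73 ± 0.10 and Ddit4 by 0.76 ± 0.13, and the libraries of Ddit4 overlapped.

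Among the enzymes the log2 fold change ran from 0.63 ± 0.17 for the hexokinase Hk1 to 2.20 ± 0.08 for Tpi1, triosephosphate isomerase. Tpi1 was at 1838, 2153, 2197 and 1933 against 481, 534, 562 and 519 CPM (edgeR adjusted p = 7.12e-16). Pgk1, phosphoglycerate kinase, was at 1016, 1218, 1164 and 1116 against 338, 334, 342 and 349.6 CPM, a log2 fold change of 1.97 ± 0.08. The aldolase Aldoa (log2 fold change 2.10 ± 0.08), the pyruvate kinase Pkm (1.31 ± 0.08) and Ldha, which makes lactate (1.53 ± 0.08), were also higher without overlap, so both early and late steps of the pathway were among the calls. The call of Hk1 was lost in DESeq2 (0.66, adjusted p = 0.0582), with library totals alone (0.38, edgeR adjusted p = 0.0819), with thinned cells (0.66, edgeR adjusted p = 0.15) and without cKO replicate 1 (0.57, edgeR adjusted p = 0.0744).

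The oxygen-sensing genes separated. Egln3 was at 31.1, 30.9, 27.7 and 23 against 8.03, 3.17, 9.3 and 3.96 CPM (2.53 ± 0.26, edgeR adjusted p = 1.16e-07), and Egln1 was higher by 1.58 ± 0.11 on the log2 scale. Hif1a was at 72.9, 53.2, 62.9 and 96 against 85.6, 67.7, 90.8 and 86.9 CPM, with a log2 fold change of -0.0047 ± 0.12 and overlapping libraries. With each cell thinned to 2000 UMIs, Hif1a was called lower (-0.81, edgeR adjusted p = 0.00775); the median cell had 5210.0 to 5794 UMIs in the Mmp12-positive gate and 9069 to 11942 in the Cx3cr1 gate. The lower member was Pfkfb4, a kinase related to Pfkfb3, at 27, 20.8, 12.8 and 23 against 36.4, 33.7, 36.8 and 39.4 CPM (-0.61 ± 0.18, edgeR adjusted p = 0.014). Its libraries did not overlap, but 23.4% of all genes tested were also lower without overlap. The call did not hold in DESeq2 (adjusted p = 0.139) or without cKO replicate 1 (edgeR adjusted p = 0.165). Pfkfb3 was higher by 1.19 ± 0.12.

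**Figure D2:**
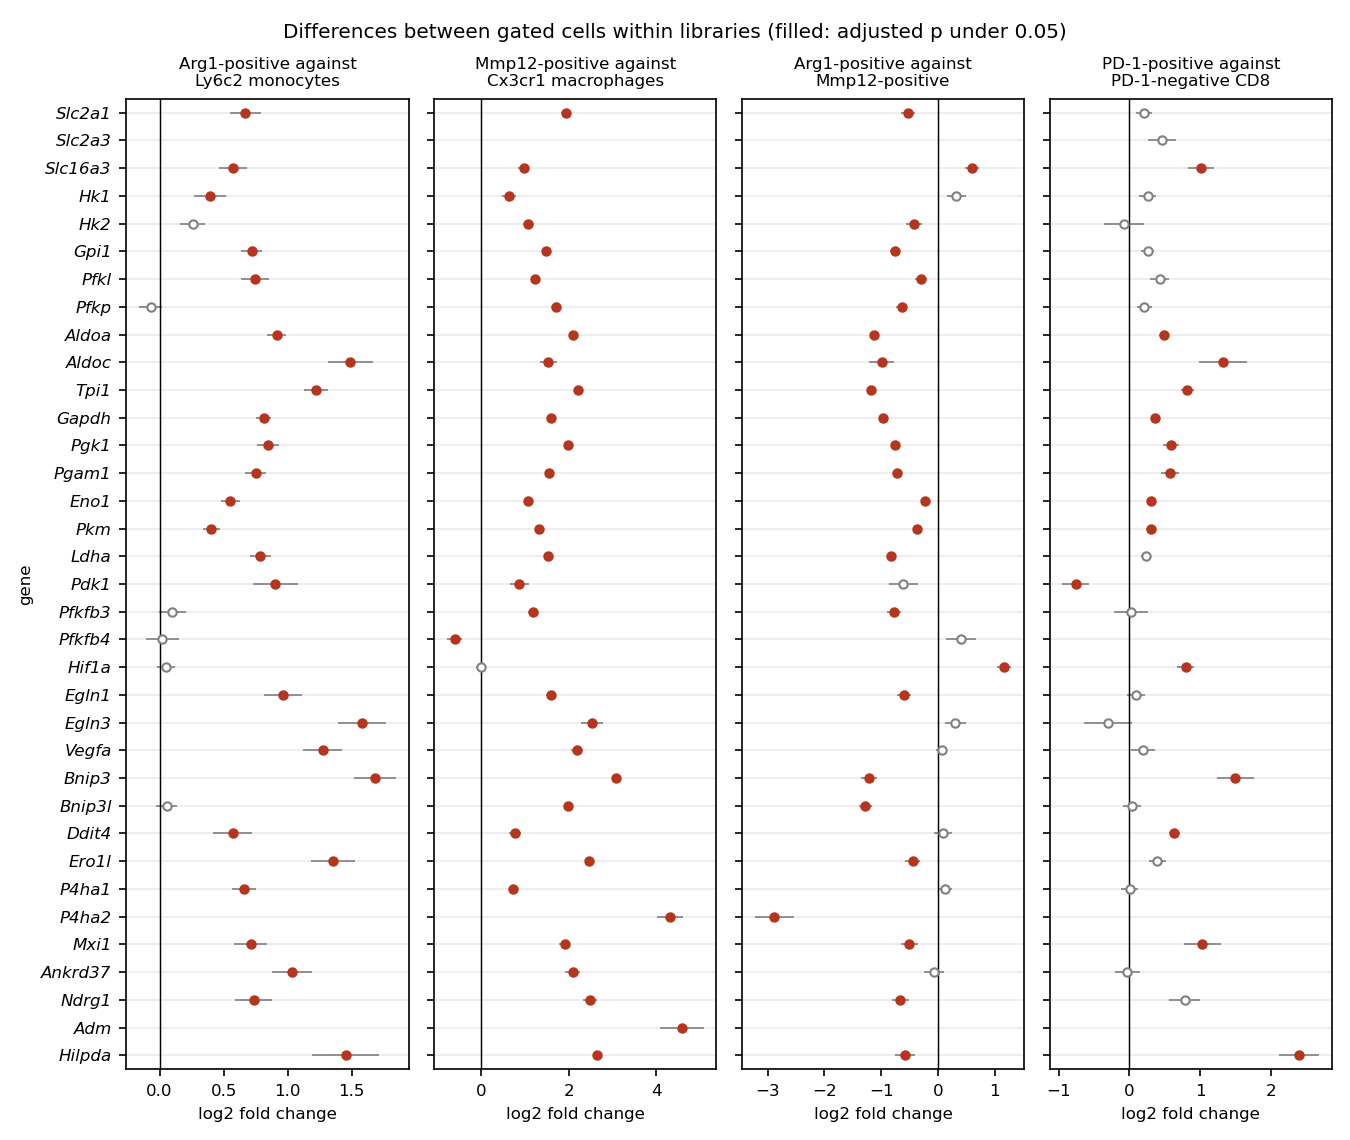
Log2 fold change of each member with its standard error in the 4 comparisons between gates, n = 4 libraries each; filled points have an adjusted p under 0.05, and a missing point was not tested. Nearly all points lie right of 0 for Mmp12-positive macrophages and for Arg1-positive cells against monocytes, and most lie left of 0 where the Arg1-positive and Mmp12-positive cells are set against each other.

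Arg1-positive myeloid cells were compared with Ly6c2 monocytes, cells with 5 or more UMIs of Ly6c2, at most 2 of C1q and neither Arg1 nor Mmp12. Of 32 members tested, 26 were higher in the Arg1-positive cells and none was lower, where 20.9% of 9534 genes passed and 10.4% were higher. The median log2 fold change was 0.74 over the members tested and 0.01 over all genes tested. The higher members were 12 of 14 enzymes, both transporters tested, 9 of 10 targets tested, Egln1, Egln3 and Pdk1, the kinase that keeps pyruvate out of the mitochondrial cycle. Of these calls Ddit4 was lost in DESeq2 (0.52, adjusted p = 0.34), without the library block (0.51, edgeR adjusted p = 0.147) and without cKO replicate 2 (0.25, edgeR adjusted p = 0.12). Hk1 was lost without cKO replicate 2 (0.24, edgeR adjusted p = 0.271) and without WT replicate 1 (0.33, edgeR adjusted p = 0.158). The call of Hk1 was also lost in DESeq2 (0.38, adjusted p = 0.163), without the library block, with stricter gates and with thinned cells. For 23 members the libraries did not overlap, all with the Arg1-positive cells above, as for 8.83% of all genes tested. The gates differ in more than Arg1: 6 macrophage markers summed to 5295 to 9046 CPM in the Arg1-positive cells and 820.2 to 1211 CPM in the monocytes, with none of the 6 at 0. The part of macrophages in these differences was not tested.

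Bnip3 had the largest difference here, at 163, 231, 215 and 305 against 70.2, 52.3, 98.9 and 59.9 CPM (1.68 ± 0.16, edgeR adjusted p = 1.16e-06). Ero1l was at 156, 159.8, 192 and 264 against 82.9, 58.2, 107 and 55 CPM (1.35 ± 0.17, edgeR adjusted p = 2.16e-05). Vegfa was at 172, 201, 143 and 154 against 83.3, 58.2, 91.7 and 43.8 CPM (1.27 ± 0.15, edgeR adjusted p = 1.11e-05). In these 3 targets each Arg1-positive library lay above each monocyte library. Hilpda was at 200.3, 217, 135 and 267 against 91.6, 75.6, 106 and 34.1 CPM (1.45 ± 0.26, edgeR adjusted p = 0.000685). Ankrd37, an ankyrin repeat protein known as a HIF target, was at 61.3, 57.5, 77.1 and 85.1 against 36.4, 27.1, 50 and 24.3 CPM (1.03 ± 0.16, edgeR adjusted p = 0.000133). Both were also apart, Hilpda by a narrower margin in cKO replicate 1.

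Tpi1 was at 882, 982, 1069 and 1107 against 432, 349.6, 568 and 393 CPM (1.22 ± 0.09, edgeR adjusted p = 8.48e-08). Aldoc, a second aldolase, was at 24.3, 14.9, 24.3 and 11.2 against 7.87, 4.11, 9.3 and 4.6 CPM (1.49 ± 0.18, edgeR adjusted p = 1.14e-05). Egln3 was at 37.7, 25.3, 52.2 and 39.2 against 16, 7.67, 22.1 and 6.67 CPM (1.58 ± 0.19, edgeR adjusted p = 1.06e-05). All 3 were higher without overlap. Pfkfb3, Pfkfb4, Hk2, Pfkp, Bnip3l and Hif1a did not pass, with log2 fold changes from -0.07 to 0.26. For Hif1a the Arg1-positive cells were at 188, 154, 188 and 175 CPM and the monocytes at 177, 155, 182 and 164 CPM, which overlap.

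Set against Mmp12-positive macrophages, Arg1-positive cells were lower in 23 and higher in 2 of 33 members tested, where 29.8% of 7636 genes passed, 15.1% as lower and 14.8% as higher. This comparison uses the same Arg1-positive and Mmp12-positive cells as the comparisons above. The median log2 fold change was -0.58 over the members tested and 0.01 over all genes tested. Scaling by library totals alone moved the latter to 0.18 and the split of all calls from 1128 higher and 1151 lower to 1852 higher and 759 lower, while 17 members were then lower and 3 higher. The median cell had 10377 to 13634.5 UMIs in the Arg1-positive gate and 5210 to 5794 in the Mmp12-positive gate. After thinning of the cells, 22 of 30 members tested were lower and 2 higher. Of these gates, only the Mmp12-positive one required UMIs of the C1q genes. The part of cell type in these differences was not tested.

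The lower members held 13 of 14 enzymes and 7 of 11 targets tested. Of these, Eno1, Hk2, Pfkl, Ero1l, Hilpda and Mxi1 each lost the call in DESeq2, with library totals alone and with at least 1 library left out. Aldoa was at 1715, 2012, 2013 and 2110.5 against 3687, 4048, 4104 and 3368 CPM (-1.12 ± 0.08, edgeR adjusted p = 6.66e-08). Bnip3l was at 95.8, 97.7, 125 and 119 against 213, 276, 243 and 221 CPM (-1.28 ± 0.11, edgeR adjusted p = 6.45e-07). P4ha2 was at 1.57, 8.05, 4.92 and 2.24 against 29.7, 23, 26.4 and 19.2 CPM (-2.88 ± 0.35, edgeR adjusted p = 1.78e-05), the largest difference among the members tested. Each of the 3 was lower in the Arg1-positive cells of all 4 libraries, without overlap. That held for 15 of the 33 members tested and for 9% of all genes tested. Bnip3 (-1.22 ± 0.14), Tpi1 (-1.17 ± 0.08), the dehydrogenase Gapdh (-0.97 ± 0.06), Aldoc (-0.99 ± 0.22) and Ldha (-0.82 ± 0.08) were lower without overlap as well.

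The 2 members higher in Arg1-positive cells were the lactate exporter and Hif1a. Hif1a was at 188, 154, 188 and 175 against 72.9, 53.2, 62.9 and 96 CPM (1.17 ± 0.12, edgeR adjusted p = 3.86e-06). Slc16a3 was at 211, 233, 179 and 325 against 108, 142, 135 and 156 CPM (0.60 ± 0.12, edgeR adjusted p = 0.00175). Neither had overlapping libraries, but 18.5% of all genes tested were also higher without overlap. Pdk1, P4ha1, Ddit4, Hk1, Ankrd37, Pfkfb4, Egln3 and Vegfa did not pass, with log2 fold changes from -0.61 to 0.41, and Slc2a3 and Adm were too low to be tested.

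CD8 T cells with 1 or more UMIs of Pdcd1, the gene of the inhibitory receptor PD-1, were compared with CD8 T cells without one. PD-1-positive here means RNA and not protein. Of 32 members tested, 14 were higher in the PD-1-positive cells and 1 was lower, where 10.6% of 8952 genes passed, 4.95% as higher and 5.69% as lower. The median log2 fold change was 0.33 over the members tested and 0.0017 over all genes tested. The higher members were 8 of 14 enzymes, 4 of 10 targets tested, Slc16a3 and Hif1a. In 6 members all PD-1-positive libraries lay above all negative ones and in 1 below, as for 8.81% and 2.89% of all genes tested. The median cell had 6824 to 9573 UMIs in the PD-1-positive gate and 5318 to 7079 in the negative gate, and with each cell thinned to 2000 UMIs 10 members were called, all higher. Scaling by library totals alone moved the split of all calls from 443 higher and 509 lower to 628 and 365, with 19 members called, all higher.

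Hilpda differed most, at 211, 899.5, 326 and 569 CPM in PD-1-positive cells against 73.3, 76.6, 100.3 and 86.4 CPM (2.40 ± 0.29, edgeR adjusted p = 0.00158). The negative libraries lay close together and below all positive ones, which were spread widely. Bnip3 was at 10.8, 62.4, 49 and 53.3 against 12.1, 24.3, 12.7 and 10.7 CPM (1.5 ± 0.26, edgeR adjusted p = 0.00704). In WT replicate 1 Bnip3 was not higher in the positive cells, so the groups overlapped. Hif1a was at 111, 153, 175 and 144 against 80.4, 73.4, 74.9 and 85.1 CPM (0.80 ± 0.12, edgeR adjusted p = 0.0039), higher in 4 of 4 libraries and without overlap. Tpi1 was at 310.0, 543, 391 and 501 against 181, 341, 177 and 243 CPM (0.82 ± 0.09, edgeR adjusted p = 0.00133). It was higher in each library, but WT replicate 2 was high in both gates and the groups overlapped.

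Ddit4 was at 207, 333, 285 and 380.0 against 123, 199.8, 175 and 236 CPM (0.63 ± 0.08, edgeR adjusted p = 0.0018). Slc16a3 was at 11.9, 31, 19.5 and 32 against 7.03, 12.6, 9.89 and 15.5 CPM (1.01 ± 0.18, edgeR adjusted p = 0.0088). Mxi1, an antagonist of MYC, was at 35.6, 62.8, 61.6 and 44.5 against 28.1, 13, 36.7 and 26.2 CPM (1.03 ± 0.27, edgeR adjusted p = 0.0384). For these 3 genes each library was higher in its own PD-1-positive cells, although the groups overlapped. Aldoc was at 8.64, 23.2, 9.42 and 22 against 11, 6.08, 1.41 and 7.74 CPM and was higher in 3 of 4 libraries (1.32 ± 0.34, edgeR adjusted p = 0.0389). Pdk1 was the lower member, at 10.8, 16.2, 10.7 and 14.9 against 21.1, 25.9, 21.2 and 19.3 CPM (-0.76 ± 0.19, edgeR adjusted p = 0.0347), without overlap, and its call was lost whenever 1 library was left out. Without cKO replicate 2, 5 members were called, namely Hilpda, Tpi1, Aldoa, Ddit4 and Hif1a, and without the library block 3, namely Hilpda, Hif1a and Mxi1. The 17 members that did not pass ran from -0.30 for Egln3 to 0.78 for Ndrg1, and included Ldha (0.23 ± 0.07, edgeR adjusted p = 0.0555) and Slc2a1 (0.20 ± 0.12).

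**Figure D3:**
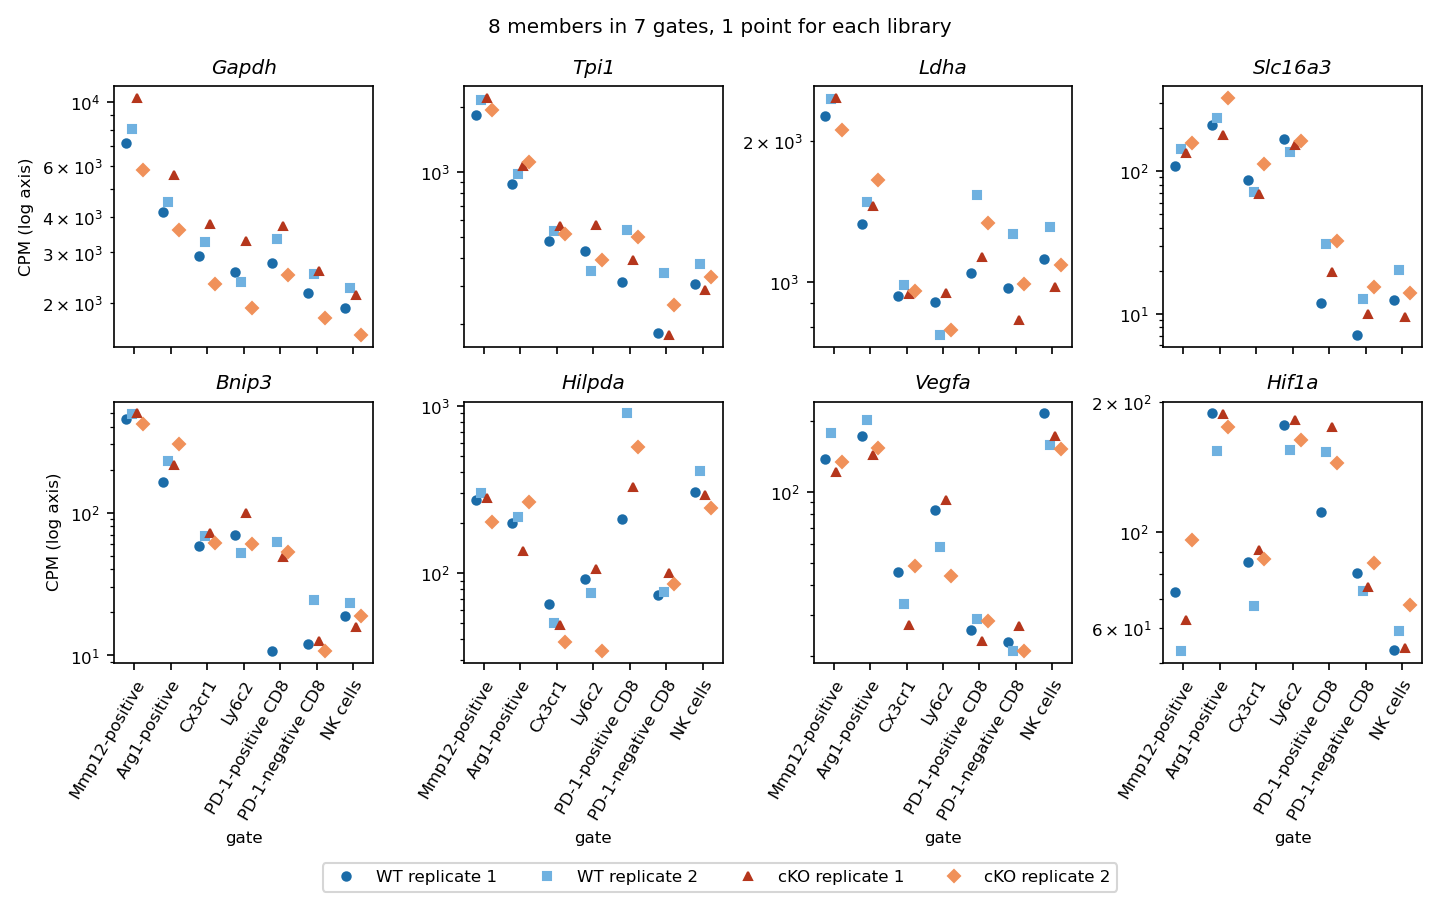
Level in CPM (log axis, scale set for each gene) of 8 members in 7 gates, with 1 point for each of the 4 libraries. Tpi1 and Bnip3 are highest in Mmp12-positive macrophages and Slc16a3 in Arg1-positive cells, while Hilpda in PD-1-positive CD8 T cells runs from 211 to 899.5 CPM.

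The members were also followed over the amount of each gate's own gene, by binning cells on its UMIs in each library, as a description with no test. From cells with no Arg1 UMI to cells with 4 or more, the summed enzymes were 1.35 to 1.91 times as high in the 4 libraries and the summed hypoxia targets 1.78 to 3.47 times. Cells with no Arg1 UMI pooled monocytes and macrophages, whose mean enzyme sums ran from 6517 CPM (Ace-positive monocytes) to 9259 CPM (Cx3cr1 macrophages). The bins above 1 UMI were the Arg1-positive cells already compared. The part of cell type in the bins was not tested. For Mmp12 in macrophages the ratios were 2.0 to 2.5 for enzymes and 2.81 to 3.65 for targets. For Pdcd1 in CD8 T cells they were 1.32 to 1.60 and 1.76 to 3.11. Macrophages with 2 or more Mmp12 UMIs, and CD8 T cells with and without Pdcd1, were likewise the gated cells already compared. The steps were uneven: macrophages with 1 Mmp12 UMI were already 1.66 to 1.87 times as high in enzymes as those with none, and in all 4 libraries higher than those with 2 to 3. Depth moved with the bins, as CD8 T cells with 4 or more Pdcd1 UMIs had a median of 10413.5 to 12831 UMIs against 5318 to 7079 in those with none, and its part in the bins was not tested.

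**Figure D4:**
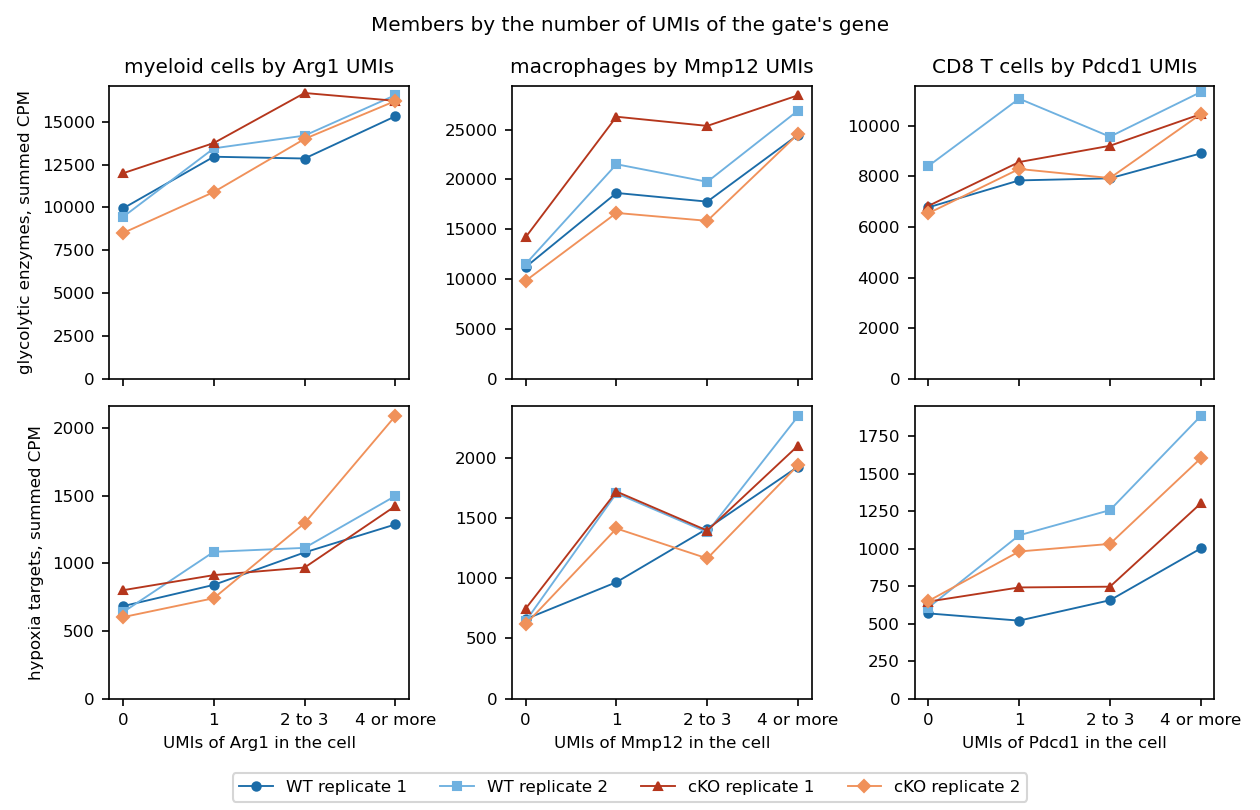
Summed CPM of the 14 glycolytic enzymes (top) and the 12 hypoxia targets (bottom) in cells binned by their UMIs of Arg1, Mmp12 or Pdcd1, with 1 line for each library. Every line ends higher than it starts, and the enzyme lines for Mmp12 dip at 2 to 3 UMIs in all 4 libraries.

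Other genes of the same pathways followed in part. Of all genes tested, 13.7% were higher and 10.8% lower in Mmp12-positive against Cx3cr1 macrophages. In Arg1-positive cells these shares were 10.4% and 10.5% against monocytes, and 14.8% and 15.1% against Mmp12-positive macrophages. In PD-1-positive CD8 T cells they were 4.95% and 5.69%. Of a list of 63 other genes of glycolysis and the hypoxia response, 37 were tested in Mmp12-positive against Cx3cr1 macrophages, where 20 were higher and 3 lower. Slc6a8, the creatine transporter, was at 9.45, 15.8, 21.6 and 16.6 against 0.803, 0.604, 0.664 and 1.06 CPM (4.59 ± 0.37, edgeR adjusted p = 1.73e-09). Nos2, the inducible nitric oxide synthase, was at 18.9, 17.2, 22.3 and 38.4 against 0.535, 1.21, 0.664 and 1.06 CPM (4.85 ± 0.33, edgeR adjusted p = 1.12e-10). Both were low genes that stood far apart between the gates. Edn1, the peptide endothelin 1, was lower (-1.59 ± 0.53), as was Adpgk, an ADP-dependent glucokinase (-0.84 ± 0.20). In Arg1-positive cells against monocytes 15 of 40 tested were higher and 4 lower, with Slc6a8 (3.25 ± 0.55) and Zfp395 (2.23 ± 0.28) above, and the transcription factor Nfil3 (-0.63 ± 0.07) and Mpc1, a subunit of the mitochondrial pyruvate carrier (-0.45 ± 0.09), below. Against Mmp12-positive macrophages, Arg1-positive cells were higher in 4 and lower in 11 of 32 tested, with the lysyl hydroxylase Plod1 (0.91 ± 0.17) and the hexokinase Hk3 (0.87 ± 0.16) above, and Slc6a8 (-2.20 ± 0.38) and Nos2 (-2.06 ± 0.27) below. In PD-1-positive CD8 T cells 5 of 33 tested were higher and 1 lower. Plod2, a collagen lysyl hydroxylase, was at 27, 49.7, 62.8 and 47.4 against 17.1, 12.2, 31.1 and 9.46 CPM (1.57 ± 0.24, edgeR adjusted p = 0.00444), the enolase Eno3 was higher by 0.97 ± 0.23, and Cited2, a HIF-induced inhibitor of HIF, was the lower one (-0.57 ± 0.12).

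Lists of neighbouring pathways were read in the same fits. Over all genes tested, 24.5% passed in Mmp12-positive against Cx3cr1 macrophages and 20.9% in Arg1-positive cells against monocytes. The share was 29.8% in Arg1-positive against Mmp12-positive cells and 10.6% in the CD8 comparison. With both directions together, the tricarboxylic acid cycle and pentose phosphate counts lay near or under these shares. They are not read as a result about those pathways. In Mmp12-positive against Cx3cr1 macrophages, none of 16 genes of the tricarboxylic acid cycle was higher and 3 were lower, among them Sdhb, a subunit of succinate dehydrogenase (-0.51 ± 0.10). None of the 16 passed in Arg1-positive cells against monocytes or in the CD8 comparison. In Arg1-positive against Mmp12-positive cells 1 was higher, Sdhb (0.28 ± 0.10), and 3 were lower, among them Suclg2 (-1.06 ± 0.28) and Sucla2 (-0.46 ± 0.16), subunits of succinyl-CoA ligase. Of 8 genes of the pentose phosphate pathway, 1 was higher in Mmp12-positive macrophages, Pgls (0.25 ± 0.09), and 2 were lower in Arg1-positive cells than in monocytes, Taldo1 (-0.61 ± 0.06) and G6pdx (-0.48 ± 0.10). Pgls was also higher in PD-1-positive than in PD-1-negative CD8 T cells (0.47 ± 0.08). In Arg1-positive against Mmp12-positive cells Pgls was lower (-0.46 ± 0.10) and Pgd higher (0.44 ± 0.11). Of the proliferation genes, 8 of 9 tested were higher in Arg1-positive cells than in monocytes, 6 of 10 were lower in Mmp12-positive than in Cx3cr1 macrophages, and 1 of 10, Ccnb2, was higher in PD-1-positive CD8 T cells (0.99 ± 0.25). In Arg1-positive against Mmp12-positive cells 8 of 10 were lower, with a median log2 fold change of -1.68, among them Mki67 (-1.77 ± 0.35), beside the 23 members lower there. The part of proliferation in the members' differences was not tested. Genes induced by tissue dissociation and heat shock summed to 9714 to 17209 CPM in Mmp12-positive and 14699 to 22101 CPM in Cx3cr1 macrophages, and 5 of 10 were lower in the former. The heat shock genes Hspa1a (0.42 ± 0.11) and Hspa1b (0.44 ± 0.12) were higher in PD-1-positive than in PD-1-negative CD8 T cells, where 1 of the 10 was lower. Of the same 10, 5 were higher and 2 lower in Arg1-positive than in Mmp12-positive cells, and 2 higher and 1 lower than in monocytes. Of the integrated stress response, 3 of 4 genes tested were higher in Mmp12-positive macrophages, among them Ddit3, a stress transcription factor, at 116, 114, 144 and 139.6 against 61.3, 56, 57.1 and 65.3 CPM (1.35 ± 0.11, edgeR adjusted p = 1.81e-09). In Arg1-positive cells against monocytes 2 of 5 were higher, Trib3 (1.31 ± 0.43) and Ddit3 (0.33 ± 0.09). Against Mmp12-positive macrophages 2 of 3 were lower, Ddit3 (-1.17 ± 0.11) and Atf4 (-0.63 ± 0.09), and in the CD8 comparison 0 of 4 passed. A set of 5 markers of tumour or epithelial cells summed to 0.676 to 4.05 CPM in Mmp12-positive macrophages, with 4 of the 5 at 0, and to 0 to 2.36 CPM in Arg1-positive cells, with 2 at 0.

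The libraries labelled cKO were compared with WT within each of 7 gates, 2 against 2. No member passed in any gate by edgeR's quasi-likelihood test or by DESeq2. Over all genes tested, 0% passed in 6 of the gates and 0.0849%, that is 6 genes, in Mmp12-positive macrophages (edgeR). At an unadjusted p under 0.05 there were 5 members in Arg1-positive cells, 4 in NK cells, 2 in PD-1-positive CD8 T cells, 1 each in Mmp12-positive macrophages and Ly6c2 monocytes, and 0 in Cx3cr1 macrophages and PD-1-negative CD8 T cells. In that order 3.9%, 3.83%, 1.51%, 5.53%, 5.9%, 2.32% and 2.36% of all genes tested had such a p. Counts of members with a positive log2 fold change are given below without the share over all genes. They only describe the members.

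In Arg1-positive cells, 29 of 33 members tested had a positive log2 fold change in cKO, with a median of 0.16, against a median of 0.0015 over all genes tested. With 1 library left out, 20 to 31 members were positive and the median ran from 0.10 without WT replicate 1 to 0.28 without WT replicate 2. For 13 members both cKO libraries were above both WT libraries and for 1, Vegfa, below, where 14.3% of all genes tested were above and 16.3% below. Ero1l was at 156 and 159.8 CPM in WT and at 192 and 264 CPM in cKO (0.54 ± 0.19, edgeR adjusted p = 0.999). Ddit4 was at 75 and 87.4 CPM in WT and at 98.1 and 132 CPM in cKO (0.53 ± 0.20, edgeR adjusted p = 0.999). Pfkfb4 was at 25.1 and 16.1 CPM in WT and at 36.1 and 41.4 CPM in cKO (0.83 ± 0.26, edgeR adjusted p = 0.851). In all 3, cKO replicate 2 was the highest library. Without cKO replicate 1, Ero1l (0.77, edgeR adjusted p = 0.0149) and Ddit4 (0.75, edgeR adjusted p = 0.0355) passed, with the lone cKO library assumed to vary like the WT libraries.

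In NK cells, 2 of 33 members tested had a positive log2 fold change, with a median of -0.23, against -0.0039 over all genes tested. In 10 members both cKO libraries were below both WT libraries and in none above, where 11.9% of all genes tested were below and 22.2% above. Pgam1, phosphoglycerate mutase, was at 269 and 337 CPM in WT and at 227 and 241 CPM in cKO (-0.45 ± 0.15, edgeR adjusted p = 0.993). Hilpda was at 304 and 406 CPM in WT and at 292 and 246 CPM in cKO (-0.47 ± 0.18, edgeR adjusted p = 0.993). Ero1l was at 49.2 and 67 CPM in WT and at 39 and 46.9 CPM in cKO (-0.51 ± 0.19, edgeR adjusted p = 0.993). In each of the 3, WT replicate 2 stood highest. With 1 library left out at a time, 5 to 9 members were positive and the median ran from -0.37 without WT replicate 1 to -0.11 without WT replicate 2.

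In Mmp12-positive macrophages 16 of 34 members were positive, with a median of -0.04, and 13 did not overlap, against 32.1% of all genes tested. The direction depended on single libraries: 7 members were positive without cKO replicate 1 (median -0.18) and 24 without cKO replicate 2 (median 0.11), and the median was 0.08 without WT replicate 2. Adm was at 4.05 and 12.2 CPM in WT and at 21.6 and 17.9 CPM in cKO (1.14 ± 0.47, edgeR adjusted p = 0.75). Vegfa was at 138 and 178 CPM in WT and at 121 and 133 CPM in cKO (-0.33 ± 0.21, edgeR adjusted p = 0.999), and Pfkfb3 had a log2 fold change of -0.30 ± 0.21. The 2 genotypes did not overlap in these 3 genes, in opposite directions. In Ly6c2 monocytes 27 of 33 were positive with a median of 0.12, and 3 did not overlap, against 32.8% of all genes tested. That direction rested on single libraries, since the median ran from -0.11 without cKO replicate 1 to 0.36 without cKO replicate 2. Pfkfb3 was at 49.4 and 49.8 CPM in WT and at 84.8 and 57.6 CPM in cKO in the monocytes (0.51 ± 0.20, edgeR adjusted p = 0.839), and it passed without cKO replicate 2 (0.78, edgeR adjusted p = 0.0348). Pfkfb4 (0.31 ± 0.13) and Hk1 (0.27 ± 0.14) were the other 2 without overlap there. Without cKO replicate 1, Hilpda (-1.32, edgeR adjusted p = 2.27e-08) and Vegfa (-0.71, edgeR adjusted p = 0.0195) passed as lower. In Cx3cr1 macrophages 18 of 32 were positive with a median of 0.05, and 11 did not overlap, against 27.3% of all genes tested, among them Hilpda (-0.41 ± 0.19), Slc2a1 (0.25 ± 0.16) and P4ha1 (0.22 ± 0.15). The median there ran from 0.03 without cKO replicate 1 to 0.10 without WT replicate 1.

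In PD-1-positive CD8 T cells 16 of 33 members were positive, with a median of -0.04, and 6 did not overlap, 5 above and 1 below, against 31.2% of all genes tested, 24.1% above and 7.13% below. Here too 1 library could turn the direction, from 7 positive members without WT replicate 1 (median -0.24) to 28 without WT replicate 2 (median 0.41), and without cKO replicate 1 the median was 0.11. Slc2a3 was at 27 and 28.5 CPM in WT and at 39.6 and 40.8 CPM in cKO (0.42 ± 0.20, edgeR adjusted p = 1). Ankrd37 was at 17.3 and 30.4 CPM in WT and at 15.7 and 15.4 CPM in cKO (-0.82 ± 0.32, edgeR adjusted p = 1). Adm was at 0 and 0.41 CPM in WT and at 3.77 and 7.58 CPM in cKO, that is 0 and 2 UMIs in WT and 6 and 31 UMIs in cKO (edgeR adjusted p = 1). Adm was the 1 member that passed when no filter on low counts was used (3.88, edgeR adjusted p = 0.0132). In PD-1-negative CD8 T cells 10 of 32 were positive with a median of -0.15, and 6 did not overlap, against 28.6% of all genes tested. The median ran from -0.26 without WT replicate 1, with 5 members positive, to 0.02 without WT replicate 2, with 18. Pgam1 was at 203 and 281 CPM in WT and at 129 and 197 CPM in cKO there (-0.63 ± 0.28, edgeR adjusted p = 1), without overlap, while Bnip3 (-0.84 ± 0.45) and Pgk1 (-0.44 ± 0.25) overlapped.

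**Figure D5:**
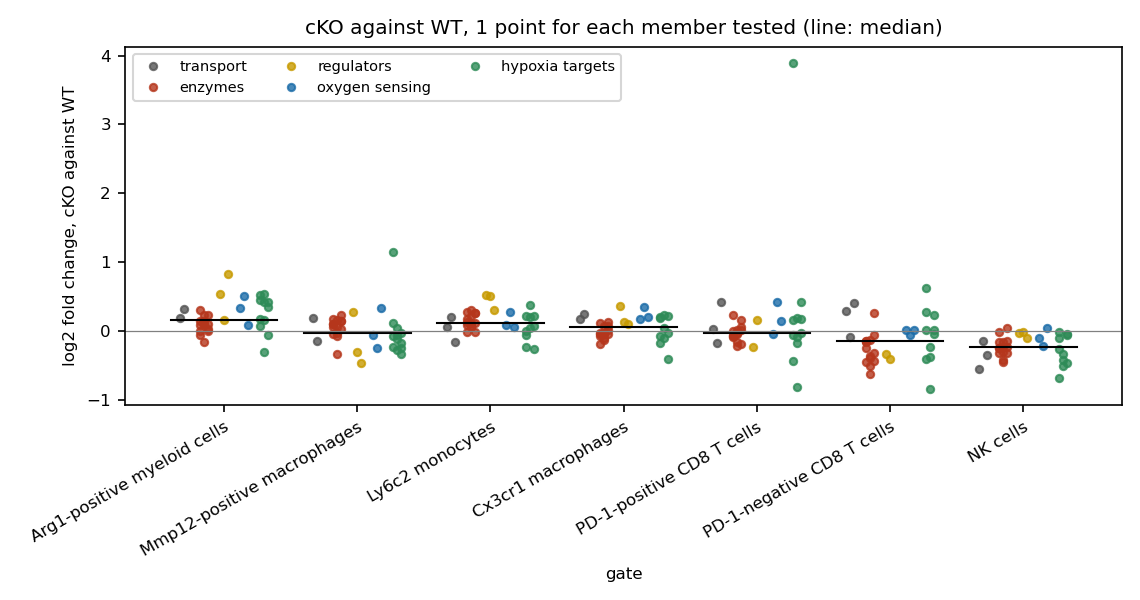
Log2 fold change of each member tested in the libraries labelled cKO against WT (2 against 2) in 7 gates, coloured by role, with the median as a line. The medians lie between -0.23 in NK cells and 0.16 in Arg1-positive cells, and no point passed the test; the highest is Adm in PD-1-positive CD8 T cells, which rests on 0 and 2 UMIs in WT and 6 and 31 in cKO.

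Whether the differences between gates depended on genotype was tested as an interaction. No member passed for Arg1-positive cells with Ly6c2 monocytes, Mmp12-positive with Cx3cr1 macrophages, or PD-1-positive with PD-1-negative CD8 T cells, by edgeR's quasi-likelihood test or DESeq2, with 1, 3 and 3 members at an unadjusted p under 0.05, as 2.58%, 5.8% and 1.9% of all genes tested had. Over all genes tested 0%, 0.26% and 0% passed. The ratio of the Bnip3 level in Mmp12-positive to that in Cx3cr1 macrophages was 7.79, 7.11, 6.91 and 6.77 in the 4 libraries, and that of Tpi1 was 3.82, 4.03, 3.91 and 3.73.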

How the data were processed

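Droplet RNA libraries of sorted CD45-positive tumour cells were analysed, 2 WT and 2 cKO. The deposited matrices hold UMI counts per gene and cell, made with Cell Ranger 6.1.1 per the file headers; CASAVA 1.8 and Seurat are named in the submitters' processing notes, without a role, and the genome build is not given in the sources used here. Cells with under 300 genes or over 15% mitochondrial UMIs were left out (405 of 32801). Cells were gated on marker UMIs, and a cell that met 2 lineages was left out as a likely doublet; no doublet caller was run, but cells of the highest UMIs were left out as an alternative. The second feature with the symbol Aldoa was not merged with the first in tests. The summed enzyme levels include that feature, whose highest mean over the gates was 1.03 CPM.

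Counts were summed per library and gate and tested with edgeR 4.0.16 (R 4.3.3; TMM factors, filterByExpr with a minimum count of 10, quasi-likelihood F test), with library as a block between gates and no block between genotypes. P-values were adjusted by Benjamini-Hochberg over all genes tested, with a threshold of 0.05. The standard error is the log2 fold change divided by the root of F. Levels are CPM without TMM, so their ratios can differ from the fitted fold changes. Alternatives were DESeq2 1.42.0, other scaling factors, no filter, other blocks, stricter gates, cells thinned to 2000 UMIs (shallower cells left out), cells of highest UMIs or shared barcodes left out, and each library left out. Leaving out shared barcodes was chosen after seeing the data. The tests were first run on simulated counts. Values per library are given for up to 8 called members with the largest change in each direction and comparison, for the 3 members of smallest p in each genotype comparison, and for up to 2 called genes per direction of each further list; a few others were named after their values were seen. The members and lists were chosen with earlier results of these data known. Free RNA in droplets was not removed.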

Additional observations from a re-analysis of the deposited data

How the results depend on the processing

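Between gates, the number of members called ranged over the alternatives from 31 to 33 (reported 33) for Mmp12-positive against Cx3cr1 macrophages, from 24 to 28 (26) for Arg1-positive cells against Ly6c2 monocytes, from 19 to 26 (25) for Arg1-positive against Mmp12-positive cells and from 3 to 19 (15) for PD-1-positive against PD-1-negative CD8 T cells. With 1 library left out at a time the ranges were 31 to 33, 24 to 26, 20 to 24 and 5 to 16. The 3 in CD8 T cells came without the library block and the 5 without cKO replicate 2. Of 1279 alternative values of the 99 member calls between gates, 1187 kept the call, 92 lost it and 0 reversed. Where an alternative left a called member too low to be tested, no value was counted, so those dropped calls are not among the losses. The losses were in Hk1 and Pfkfb4 of the macrophages, in Hk1 and Ddit4 of the Arg1-positive cells against monocytes, in 6 members of the comparison of Arg1-positive with Mmp12-positive cells and in 13 of the CD8 comparison, all of its called members but Hilpda and Hif1a; the cause was not tested. Counts over all genes moved more: 1195 to 3480 (reported 2221), 822 to 2239 (1994), 1285 to 2636 (2279) and 503 to 1598 (952), and with 1 library left out 217 to 953 for the CD8 comparison.

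For cKO against WT, 0 members were called in each gate under the alternatives, except 1 in PD-1-positive CD8 T cells with no filter on low counts. With 1 library left out, 0 to 2 members were called in Arg1-positive cells and 0 to 2 in Ly6c2 monocytes, and 0 in the other 5 gates. Over all genes, the counts under the alternatives that kept all 4 libraries reached 63, 73, 172, 38, 50, 40 and 59. The order is Arg1-positive, Mmp12-positive, Ly6c2, Cx3cr1, PD-1-positive, PD-1-negative and NK cells. With the replicate number as a block, 0 members were called in all 7 gates. The labels do not pair same-numbered libraries, and the correlation of their deviations ran from -0.0729 to 0.244. Depth limits Adm, P4ha2 and Slc2a3, which had few UMIs in many gates, and 2 libraries a genotype limit the rest.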

Other observations

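Gapdh followed the library in every kind of cell. It was lowest in cKO replicate 2 in 16 of 16 gates and highest in cKO replicate 1 in 15 of 16, the exception being NK cells, where WT replicate 2 was highest. The ratio of cKO replicate 1 to cKO replicate 2 ran from 1.38 to 2.18 over the gates, with a median of 1.61, although both libraries carry the same label. In B cells Gapdh was at 829, 905, 1072 and 756 CPM. Of 2850 features with at least 10 UMIs in every gate and library, 16 of them members, 3 were lowest in cKO replicate 2 in every gate, which is 0.105%, and Gapdh was the 1 member among them. Highest in cKO replicate 1 in every gate were 23 features, 0.807%, and no member. The part of these library differences in the other members was not tested.

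Adm, highest in Mmp12-positive macrophages, had its second highest mean in B cells, the lowest gate for most other members. Its levels there were 1.76, 7.17, 13.2 and 29.8 CPM, from 1, 4, 12 and 51 UMIs. Both libraries labelled cKO were above both WT libraries, as in PD-1-positive CD8 T cells and Mmp12-positive macrophages. Of all genes tested, 24.1% lay so in PD-1-positive CD8 T cells and 15.7% in Mmp12-positive macrophages. For B cells this share was not computed. Over the 16 gates the highest library for Adm was WT replicate 1 in 2, WT replicate 2 in 4, and cKO replicates 1 and 2 in 5 each. Some of these levels rested on 0 UMIs. B cells were not among the gates in which genotypes were tested.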
